A study of Mus musculus with 3 samples.

Results

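The cells described here were macrophages of the crushed mouse sciatic nerve that still held Arg1 RNA 5 days after the injury. They were chosen by their measured Arg1, Gpnmb and Cx3cr1 counts: at least 3 unique molecular identifiers of Arg1 (UMIs, of which every captured RNA molecule carries its own), at most 1 UMI of Gpnmb and at most 1 UMI of Cx3cr1. A minimum of 200 detected genes and a maximum of 10% mitochondrial UMIs also applied. The rule took 89 of the 2059 day 5 cells (4.32%, 95% Clopper-Pearson interval 3.49 to 5.29), out of 5586 cell barcodes in the series. They are called the chosen cells below, and no authors' annotation of cell types was used.

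The study sequenced single cells from the sciatic nerve of C57BL/6 mice, with 1 library of nerve 5 days after nerve crush, 1 of nerve 1 day after it and 1 of uninjured nerve at steady state. Nerve crush cuts the axons inside an intact nerve sheath. Droplets were made with 10x Genomics v1 chemistry, per the labels, and neither the number of animals in a library nor any sort is given in the sources used here. Each time point was a single library without replicates, so time and library cannot be told apart, no p-value is given, and the intervals are 95% intervals that cover counting error only.

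Arg1 encodes arginase 1, an enzyme that turns arginine into ornithine and urea, and ornithine feeds polyamine and proline synthesis. In mice Arg1 is a classic marker of alternatively activated macrophages, and it is also switched on in macrophages that enter injured tissue and in those short of oxygen. Spp1 (osteopontin, a secreted adhesion protein) and Fn1 (fibronectin, a protein of the early wound matrix) are often found in the same injury macrophages, while Gpnmb marks lipid-loaded macrophages and Cx3cr1 is a chemokine receptor of resident macrophages and microglia.

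The 3 libraries kept 2059, 2793 and 728 cells for day 5, day 1 and steady state, after 6 barcodes were removed. The kept libraries had 5524496, 7975791 and 1658022 UMIs in the same order. Median UMIs per cell were 2473, 2555 and 2238.5. Arg1 had 1156 UMIs in the day 5 library (209 CPM, counts scaled to a total of 1e+06 UMIs), 35699 UMIs in the day 1 library (4483 CPM) and 1 UMI at steady state.

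Arg1 was unevenly spread over the day 5 cells. No Arg1 UMI was seen in 1690 cells (82.1%), 166 cells held 1 UMI (8.06%), 62 held 2 (3.01%) and 141 held 3 or more (6.85%). Those 141 cells carried 74.9% of the day 5 Arg1 UMIs. The limits on Gpnmb and Cx3cr1 kept out 52 of them, 27 for Gpnmb, 22 for Cx3cr1 and 3 for both, and left the 89 chosen cells with 551 Arg1 UMIs, 47.7% of the library's. The cells kept out were also the deeper ones, with a median of 4378 UMIs against 2896 in the chosen cells.

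Levels were compared with cells of similar depth, 3 for each chosen cell. The 267 matched day 5 cells with 0 Arg1 UMIs had a median of 2890 UMIs, the 267 matched day 1 cells with 3 or more Arg1 UMIs a median of 2905, and the 89 chosen cells a median of 2896. The limits on Gpnmb and Cx3cr1 applied to the chosen cells alone; with the same limits on the comparison cells, the counts of 2-fold genes given below were 41 higher and 64 lower against day 5, and 99 higher and 185 lower against day 1. Median detected genes were 910 in the chosen cells, 930 in the day 5 cells with 0 Arg1 UMIs and 975 in the day 1 cells. Median mitochondrial shares were 0.394% in the chosen cells, 0.415% in the day 5 cells with 0 Arg1 UMIs and 0.288% in the day 1 cells.

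The chosen cells held 3 to 33 Arg1 UMIs each with a median of 4, and the matched day 1 cells a median of 15 and up to 102. Most of the chosen cells were near the lower limit, with 32 of 89 at 3 UMIs and 17 at 4, and 13 reached 10 or more. Summed over cells, the Arg1 level was 2085 CPM in the chosen cells and 6129 CPM in the matched day 1 cells. Arg1 chose both groups, so these values are a description. Of the cells that met the limits on Gpnmb and Cx3cr1, 32 had 3 Arg1 UMIs and were taken, and 48 had 2 and were not. Spp1 was at 2877 CPM in the 32 cells just inside and at 3784 CPM in the 48 just outside, Fn1 at 768 CPM just inside and 749 CPM just outside, and Cd74 at 5084 CPM just inside and 9410 CPM just outside.

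**Figure D1:**
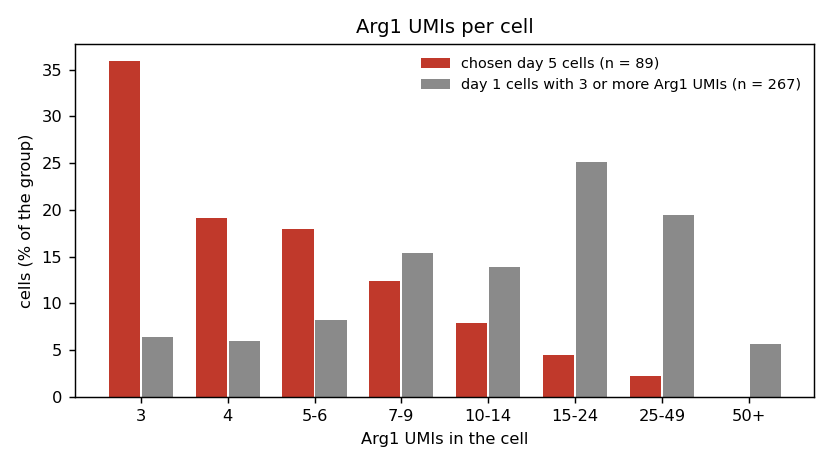
Share of cells (y axis, percent of the group) by the number of Arg1 UMIs in the cell (x axis, classes) for the 89 chosen day 5 cells (red) and the 267 depth-matched day 1 cells with 3 or more Arg1 UMIs (grey). The chosen cells have a median of 4 Arg1 UMIs and the day 1 cells a median of 15, and both groups start at 3 by their rule.

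The chosen cells carried macrophage RNA. All 10 macrophage markers had UMIs in them, with a summed level of 37675 CPM in the chosen cells, 34137 CPM in the matched day 5 cells with 0 Arg1 UMIs and 26718 CPM in the matched day 1 cells. Markers of T and NK cells, mast cells, fibroblasts and erythroid cells were at 0 UMIs in the chosen cells. Of the 9 neutrophil markers 8 were at 0, and Csf3r had the 4 UMIs of the list. Schwann cell markers had 10 UMIs (Mbp and Pmp22), B cell markers 2 (Cd79b) and endothelial markers 5 (Pecam1). Dendritic cell markers had 12 UMIs, with 5 of 10 at 0, and 2 of the 89 cells held 3 or more. The label's word macrophage therefore matches the markers, while persisting describes the time point alone: whether a cell had held Arg1 since day 1 cannot be read from these counts.

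A few barcodes occurred in more than 1 library. The day 5 library shared 11 barcodes with day 1 and 3 with steady state, and 1 chosen cell was in each of these overlaps. The chosen cell whose barcode also occurred at day 1 had 27 Arg1 UMIs in the day 5 library and 29 in the day 1 library. Its Apoe count was 252 UMIs at day 5 and 17 at day 1, and its Cd74 count 138 UMIs at day 5 and 0 at day 1. Without the shared barcodes 45 genes were 2-fold higher and 58 lower than in the day 5 cells with 0 Arg1 UMIs, and 104 higher and 185 lower than in the day 1 cells, beside the counts over all cells that follow.

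Against matched day 5 cells with 0 Arg1 UMIs, the chosen cells had more Spp1, Vegfa, Bnip3, Ero1l and Mif and less of the class II antigen presentation genes, Retnla, Plac8 and Il1b. At a minimum of 100 CPM in either group 1420 genes were compared, of which 45 (3.17%) were at least 2-fold higher in the chosen cells and 59 (4.15%) at least 2-fold lower. The median log2 ratio over these genes was -0.00. Against matched day 1 cells with Arg1, 101 of 1544 genes (6.54%) were at least 2-fold higher in the chosen cells and 182 (11.8%) at least 2-fold lower, with a median of -0.21. Under median-of-ratios scaling that median was -0.08 and the split against day 1 was 132 higher and 145 lower. Gene lists were counted over members with at least 50 CPM in either group, where 5.6% of 2552 genes were 2-fold higher and 7.25% 2-fold lower than in the day 5 cells with 0 Arg1 UMIs. In the same way 8.93% of 2698 were higher and 14.8% lower than in the day 1 cells. A gene of a list or of these shares could thus enter through the higher group alone. Both comparisons share the chosen cells.

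Few of the other genes of arginine and polyamine metabolism differed at day 5. Of 5 measured genes, 1 was 2-fold higher in the chosen cells than in the day 5 cells with 0 Arg1 UMIs and 0 were 2-fold lower, with a median log2 ratio of -0.11 beside -0.00 over all genes. The gene that was higher was Ass1, which encodes argininosuccinate synthase of arginine resynthesis, at 64.3 CPM in the chosen cells and 13.9 CPM in the day 5 cells with 0 Arg1 UMIs, but 1 cell held 70.6% of its UMIs. Odc1, the ornithine decarboxylase that opens polyamine synthesis, was at 41.6 CPM in the chosen cells, 74.6 CPM in the day 5 cells with 0 Arg1 UMIs and 175 CPM in the day 1 cells. Nos2, the nitric oxide synthase that competes with arginase for arginine, had 0 UMIs in the chosen cells, which allows up to 11.4 CPM by a limit of 3 counts and 14.0 CPM by the 95% Poisson interval. Against the day 1 cells 4 of 8 measured genes of the list were 2-fold lower and 0 higher in the chosen cells (median -0.76, beside -0.21 over all genes), and Srm, the spermidine synthase, was at 7.57 CPM in the chosen cells against 56.5 CPM in the day 1 cells.

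Spp1 lay between both sets of comparison cells. It was at 5532 CPM in the chosen cells, 1678 CPM in the day 5 cells with 0 Arg1 UMIs and 9588 CPM in the day 1 cells. It was 3.30-fold (interval 3.06 to 3.55) higher than in the day 5 cells with 0 Arg1 UMIs and 1.73-fold (interval 1.64 to 1.83) lower than in the day 1 cells. As a share of a cell's UMIs it ran from 0% through a median of 0.243% to 7.61% in the chosen cells, from 0% through 0.0449% to 3.13% in the day 5 cells with 0 Arg1 UMIs, and from 0% through 0.403% to 10.5% in the day 1 cells. The ranges overlapped, and 69 of the 89 chosen cells were above the median of the day 5 cells with 0 Arg1 UMIs while 32 were above that of the day 1 cells. The spread within the chosen cells was wide, since 1 cell held 18.8% of their Spp1 UMIs. Thinned to 1000 UMIs per cell, 73.5% of 83 chosen cells had a Spp1 UMI, compared with 49.0% of 249 day 5 cells with 0 Arg1 UMIs and 81.1% of 249 day 1 cells. Unthinned these shares were 82.0% in the chosen cells, 66.3% in the day 5 cells with 0 Arg1 UMIs and 93.3% in the day 1 cells. Day 5 cells with dendritic cell markers, where little Spp1 is expected, had Spp1 UMIs in 24.1% of 29 cells after thinning and in 56.7% before, at a median of 3885 UMIs per cell, so that part of each share can be free RNA.

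The other matrix genes differed less. Fn1 was at 874 CPM in the chosen cells, 483 CPM in the day 5 cells with 0 Arg1 UMIs and 1291 CPM in the day 1 cells, a ratio of 1.81 over the day 5 cells with 0 Arg1 UMIs. After thinning the share of cells with a Fn1 UMI was 50.6% for chosen cells, 28.9% for day 5 cells with 0 Arg1 UMIs, 58.2% for day 1 cells and 24.1% for day 5 cells with dendritic cell markers; unthinned the shares were 75.3%, 45.7%, 80.1% and 30.0% in the same order. Per cell, 67 of 89 chosen cells were above the Fn1 median of the day 5 cells with 0 Arg1 UMIs, which was 0%, and 30 were above that of the day 1 cells, 0.0934%. Thbs1 (thrombospondin 1, a matrix protein that activates TGF-beta) was at 583 CPM in the chosen cells, 345 CPM in the day 5 cells with 0 Arg1 UMIs and 938 CPM in the day 1 cells. Tgm2, a transglutaminase that cross-links matrix proteins, was 3.16-fold (interval 1.94 to 5.17) higher in the chosen cells than in the day 5 cells with 0 Arg1 UMIs, at 140.0 CPM against 44.3 CPM. In the list of injury matrix and proteolysis genes 2 of 13 were 2-fold higher and 0 lower in the chosen cells than in the day 5 cells with 0 Arg1 UMIs (median 0.32); these were Spp1 and Tgm2.

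**Figure D2:**
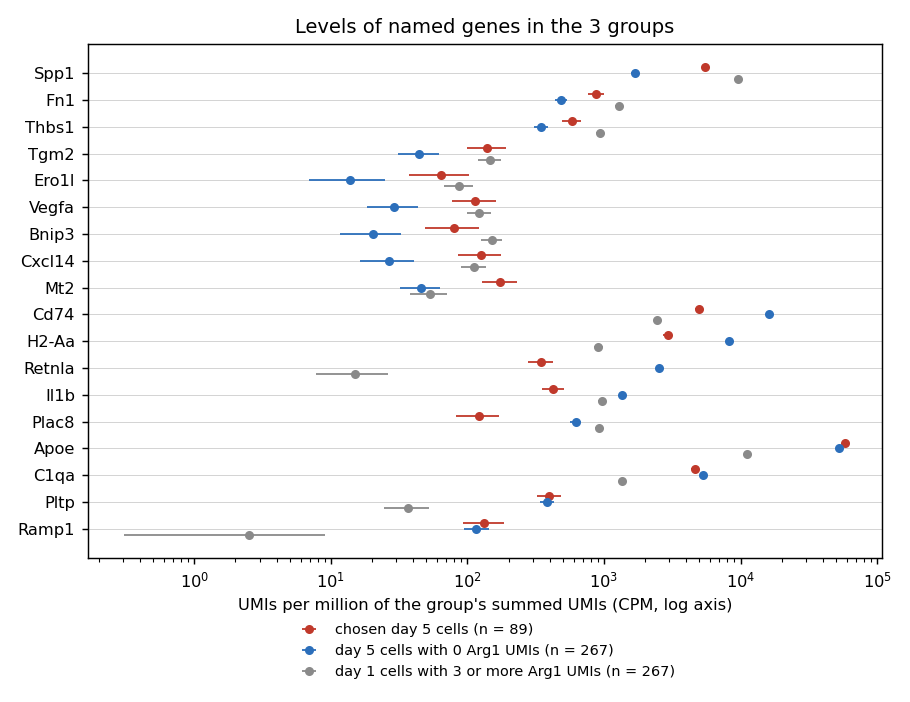
Level of 18 named genes (x axis, CPM on a log scale) in the chosen day 5 cells (red), matched day 5 cells with 0 Arg1 UMIs (blue) and matched day 1 cells with 3 or more Arg1 UMIs (grey); bars are 95% Poisson intervals. Spp1, Fn1, Thbs1 and Bnip3 of the chosen cells lie between both comparison groups, Retnla, Cd74 and H2-Aa too but with the day 5 cells on the high side, and Apoe, Pltp and Ramp1 lie beside the day 5 cells with 0 Arg1 UMIs.

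Genes of glycolysis and of the response to low oxygen had the highest median of the 18 lists in the comparison at day 5. Of 16 measured genes 14 had a log2 ratio above 0, 5 were 2-fold higher in the chosen cells than in the day 5 cells with 0 Arg1 UMIs and 0 lower. Of these 5, Vegfa, Bnip3, Ero1l and Egln3 reached 50 CPM in the chosen cells alone, and Mif in both groups. The same minimum applied to the 5.6% of all genes that were 2-fold higher. The median log2 ratio was 0.85 beside -0.00 over all genes. The summed level of the list was 5861 CPM in the chosen cells, 3360 CPM in the day 5 cells with 0 Arg1 UMIs and 10758 CPM in the day 1 cells. Vegfa, the growth factor that drives vessel growth, was at 114 CPM in the chosen cells and 29.1 CPM in the day 5 cells with 0 Arg1 UMIs, 3.90-fold (interval 2.19 to 7.04) higher. It had UMIs in 24 of 89 chosen cells, 15 of 267 day 5 cells with 0 Arg1 UMIs and 59 of 267 day 1 cells. After thinning 6.02% of chosen cells had a Vegfa UMI, 2.01% of the day 5 cells with 0 Arg1 UMIs, 10.4% of the day 1 cells and 0 of 29 day 5 cells with dendritic cell markers. Bnip3, which directs mitochondria to autophagy in low oxygen, was 3.93-fold (interval 1.95 to 8.05) higher, at 79.5 CPM in the chosen cells against 20.2 CPM in the day 5 cells with 0 Arg1 UMIs. Ero1l, an oxidase of disulfide bond formation in the endoplasmic reticulum, was 4.62-fold (interval 2.04 to 10.9) higher, at 64.3 CPM against 13.9 CPM. Egln3, an oxygen-sensing prolyl hydroxylase, does not describe the group, because 1 cell held 95.5% of its 22 UMIs.

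The following members were named after their values were seen. Mif, a secreted cytokine, was at 809.7 CPM in the chosen cells, 293 CPM in the day 5 cells with 0 Arg1 UMIs and 1182 CPM in the day 1 cells. Among the glycolytic enzymes Aldoa was at 772 CPM in the chosen cells against 403 CPM in the day 5 cells with 0 Arg1 UMIs, and Pkm at 692 CPM against 376 CPM. Gapdh was at 927 CPM in the chosen cells against 525 CPM in the day 5 cells with 0 Arg1 UMIs and Ldha at 669.7 CPM against 521 CPM. These enzymes were between 1 and 2-fold higher, below the 2-fold threshold. Hif1a, the oxygen-regulated transcription factor itself, was in the opposite direction at 68.1 CPM in the chosen cells against 133 CPM in the day 5 cells with 0 Arg1 UMIs. Per cell the list took 0%, 0.544% and 1.92% of UMIs (lowest, median, highest) in the chosen cells, 0%, 0.263% and 1.47% in the day 5 cells with 0 Arg1 UMIs, and 0.159%, 0.931% and 3.35% in the day 1 cells. The ranges overlapped, and 64 of 89 chosen cells were above the median of the day 5 cells with 0 Arg1 UMIs and 17 above that of the day 1 cells.

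Promoters are shown for Bnip3, Ero1l and Mif, which have a match at their listed start, because hypoxia-inducible factors are known to bind a short core motif, ACGTG. The motif was sought on both strands from 250 bases before to 50 bases after each gene start in RefSeq (GRCm38.p6). It was present for 18 of the 24 matched genes of the list (75%), for 13 of the 16 measured ones (81.2%) and for 5886 of all 27025 genes (21.8%). A gene counted if any of its listed starts had a match, with 33 starts for the 24 genes and 32851 for all genes. The list was put together from glycolysis and low-oxygen genes, so these shares describe the list and not the chosen cells. Of the other 2 genes that were 2-fold higher, Vegfa had no match at its first listed start and one at its second, and Egln3 had one. The capitals mark the motif or its reverse complement, and a match is a description of the sequence, not a binding site. The Bnip3 window is chr7:138909584-138909638, that of Ero1l (Ero1a in RefSeq) chr14:45318606-45318660 and that of Mif chr10:75860228-75860273, each on the minus strand and written 5′ to 3′.
Bnip3: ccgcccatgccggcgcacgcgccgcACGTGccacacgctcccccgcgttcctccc
Ero1l: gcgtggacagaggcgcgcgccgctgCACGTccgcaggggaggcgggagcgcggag
Mif: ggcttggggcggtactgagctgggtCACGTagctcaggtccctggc

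Genes of class II antigen presentation had the lowest median of the 18 lists in the comparison at day 5. Of 6 measured genes 5 were 2-fold lower in the chosen cells than in the day 5 cells with 0 Arg1 UMIs and 0 higher, with a median log2 ratio of -1.56 beside -0.00 over all genes. The summed level was 13323 CPM in the chosen cells, 40089 CPM in the day 5 cells with 0 Arg1 UMIs and 5397 CPM in the day 1 cells. Cd74, the invariant chain that guides class II molecules to the peptide-loading compartment, was 3.26-fold (interval 3.08 to 3.45) lower, at 4930.2 CPM in the chosen cells against 16056 CPM in the day 5 cells with 0 Arg1 UMIs. H2-Aa, the alpha chain of the class II molecule, was 2.81-fold (interval 2.61 to 3.03) lower, at 2925 CPM against 8212 CPM. H2-DMb1, a chain of the peptide exchange factor, was 3.97-fold (interval 3.01 to 5.35) lower, at 204 CPM against 812 CPM. Per cell the list took 0%, 0.252% and 8.55% of UMIs (lowest, median, highest) in the chosen cells, 0%, 2.31% and 15.3% in the day 5 cells with 0 Arg1 UMIs, and 0%, 0.0563% and 15.6% in the day 1 cells. The ranges overlapped, yet 13 of 89 chosen cells were above the median of the day 5 cells with 0 Arg1 UMIs and 87 above that of the day 1 cells. After thinning a Cd74 UMI was seen in 56.6% of chosen cells, 79.9% of the day 5 cells with 0 Arg1 UMIs and 34.1% of the day 1 cells. Dendritic cells express class II strongly, and dendritic cell markers summed to 45.4 CPM in the chosen cells and 63.2 CPM in the day 5 cells with 0 Arg1 UMIs; their part in the class II difference was not tested.

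Of 10 measured genes of alternative activation besides Arg1, 0 were 2-fold higher in the chosen cells than in the day 5 cells with 0 Arg1 UMIs and 3 were 2-fold lower (median -0.58). These were Retnla, Mgl2 and Egr2. Retnla, a secreted protein induced by interleukin 4 in mouse macrophages, was 7.38-fold (interval 5.98 to 9.21) lower, at 344 CPM in the chosen cells against 2540.4 CPM in the day 5 cells with 0 Arg1 UMIs. It was found in 22 of the 89 chosen cells, and 1 of them held 38.5% of its UMIs. After thinning 6.02% of chosen cells had a Retnla UMI, against 24.9% of the day 5 cells with 0 Arg1 UMIs, 0.803% of the day 1 cells and 17.2% of day 5 cells with dendritic cell markers. The part of free RNA in these shares was not tested. Mgl2, a lectin also induced by interleukin 4, was at 26.5 CPM in the chosen cells against 139 CPM in the day 5 cells with 0 Arg1 UMIs.

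Inflammatory and monocyte genes were lower on balance or mixed. Of 16 cytokine and chemokine genes 8 were 2-fold lower in the chosen cells than in the day 5 cells with 0 Arg1 UMIs and 0 higher (median -0.99). Il1b, the cytokine interleukin 1 beta, was 3.21-fold (interval 2.64 to 3.93) lower, at 424 CPM in the chosen cells against 1359 CPM. Ccl12, a chemokine that recruits monocytes, was 2.63-fold (interval 1.83 to 3.91) lower, at 125 CPM against 329 CPM in the day 5 cells with 0 Arg1 UMIs. Of 15 monocyte genes 4 were 2-fold lower and 1 higher (median -0.07), the higher one being Clec4d, a lectin receptor, at 151 CPM in the chosen cells against 69.5 CPM in the day 5 cells with 0 Arg1 UMIs. Plac8 was 5.13-fold (interval 3.58 to 7.58) lower, at 121 CPM in the chosen cells against 621 CPM in the day 5 cells with 0 Arg1 UMIs, and Ccr2, the receptor through which monocytes enter tissue, was at 140.0 CPM against 376 CPM. The 6 monocyte markers summed to 322 CPM in the chosen cells, 1170 CPM in the day 5 cells with 0 Arg1 UMIs and 2081 CPM in the day 1 cells. The part of monocytes among the day 5 cells with 0 Arg1 UMIs in these differences was not tested.

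Most other lists differed little between the chosen cells and the day 5 cells with 0 Arg1 UMIs. Of 14 iron, heme and antioxidant genes 2 were 2-fold higher and 0 lower (median 0.54): Mt2, a metal-binding metallothionein, at 174 CPM in the chosen cells against 45.5 CPM, and Txnrd1, a thioredoxin reductase, at 68.1 CPM against 20.2 CPM in the day 5 cells with 0 Arg1 UMIs. Mt2 had a log2 ratio of 1.93, but -0.18 when cells were thinned to 1000 UMIs. The median of this list was the next highest of the 18 after glycolysis and hypoxia, and 12 of its 14 genes had a log2 ratio above 0. The list summed to 62246 CPM in the chosen cells and 42689 CPM in the day 5 cells with 0 Arg1 UMIs. Per cell, 67 of 89 chosen cells were above the median of the latter, with overlapping ranges. None of 21 lipid and lysosome genes reached 2-fold in either direction (median 0.30). Apoe, a carrier of lipids, was at 58126 CPM in the chosen cells and 52868 CPM in the day 5 cells with 0 Arg1 UMIs. Of 12 resident macrophage genes 1 was 2-fold lower, which was Cd81, at 90.8 CPM in the chosen cells against 302 CPM in the day 5 cells with 0 Arg1 UMIs. The medians of the complement (1 of 10 lower), interferon (2 of 11 lower), growth factor (1 of 6 higher), stress response (1 of 8 lower) and apoptotic cell uptake lists (0 of 8 in either direction) lay between -0.32 and 0.31. Immediate early genes had a median of -0.48, with 1 of 18 higher and 2 lower. For cell cycle genes the median was -0.55 (1 of 5 higher, 1 lower), and microglia-associated genes had one of -0.20, with 2 of 5 lower.

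**Figure D3:**
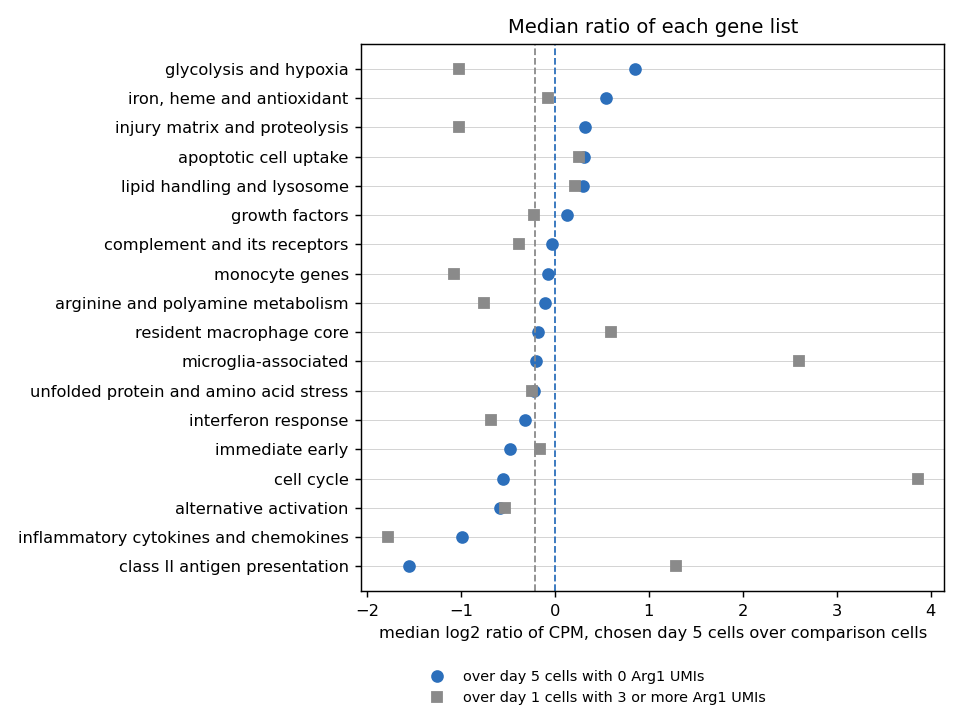
Median log2 ratio of CPM of the 18 gene lists (x axis), chosen cells over matched day 5 cells with 0 Arg1 UMIs (blue circles) and over matched day 1 cells with 3 or more Arg1 UMIs (grey squares); dashed lines are the medians over all genes with at least 100 CPM, -0.00 and -0.21. The glycolysis and hypoxia list is at 0.85 and -1.03, the class II list at -1.56 and 1.28.

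The 10 genes with the largest ratios over the day 5 cells with 0 Arg1 UMIs were mostly carried by single cells. In 20 of the 45 genes that were 2-fold higher, 1 cell held 50% or more of the chosen cells' UMIs. Among the 10, this was so for Pigu (100%), Tma16 (93.9%), Ubap1 (93.3%), Tbcc (76.5%), Rhoc (52.6%), Tbpl1 (51.6%) and Sept9 (51.3%), and their ratios describe those cells. The other 3 were Vegfa, Mt2 and Cxcl14, a chemokine, which was 4.70-fold (interval 2.64 to 8.55) higher at 125 CPM in the chosen cells against 26.6 CPM in the day 5 cells with 0 Arg1 UMIs. The 10 genes with the largest ratios in the other direction were, besides Retnla, Mgl2, Plac8 and H2-DMb1, Batf3, a transcription factor of dendritic cells (5.35-fold lower), Nfkbiz, a nuclear regulator of inflammatory genes (4.60-fold), Eif1a (6.08-fold), Srsf11 (4.46-fold), Tppp3 (4.22-fold) and Plbd1 (3.78-fold).

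Against the day 1 cells with Arg1, the chosen cells had more Apoe, Pltp, C1qa and Ramp1, at levels near those of the day 5 cells with 0 Arg1 UMIs, and less of the early chemokines. Apoe was 5.25-fold (interval 5.11 to 5.38) higher, at 58126 CPM in the chosen cells against 11082 CPM in the day 1 cells. Per cell Apoe took 0.359%, 4.66% and 16.8% of UMIs (lowest, median, highest) in the chosen cells, 0.210%, 4.64% and 18.2% in the day 5 cells with 0 Arg1 UMIs and 0%, 0.753% and 5.95% in the day 1 cells. Pltp, a phospholipid transfer protein, was 10.9-fold (interval 7.17 to 17.1) higher, at 397 CPM against 36.4 CPM in the day 1 cells. Ramp1, a subunit of the receptor for the sensory neuropeptide CGRP, was 52.7-fold (interval 13.5 to 452) higher, with 35 UMIs in the chosen cells against 2 in the day 1 cells. Igf1, a growth factor, was 7.53-fold (interval 3.95 to 15.2) higher, at 132 CPM against 17.6 CPM. C1qa, the A chain of the complement protein C1q, was 3.39-fold (interval 3.12 to 3.68) higher, at 4624 CPM against 1363 CPM in the day 1 cells. Retnla, low among the day 5 cells as given above, was still 22.8-fold (interval 12.5 to 45.8) higher than in the day 1 cells, where it was at 15.1 CPM. Without the cell that held most of it the ratio was 15.9, and chosen cells with 5 or more Arg1 UMIs were at 76.1 CPM. The part of free RNA in the Retnla of the chosen cells was not tested. Each of these except Retnla was close to its level in the day 5 cells with 0 Arg1 UMIs, as the plot of gene levels shows for Apoe, Pltp, Ramp1 and C1qa.

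By list, 4 of 5 microglia-associated genes were 2-fold higher in the chosen cells than in the day 1 cells and 0 lower (median 2.60, beside -0.21 over all genes), as were 5 of 6 class II genes (median 1.28). The 4 microglia-associated genes were Ramp1, Tmem176a, Tmem176b and Fcrls. Only 5 of the 14 genes of that list reached 50 CPM, so the median does not describe the list as a whole. Of 21 lipid and lysosome genes 4 were higher and 2 lower (median 0.22), and the list summed to 80242 CPM in the chosen cells and 33246 CPM in the day 1 cells, but to 22116 CPM and 22164 CPM without Apoe. Of 12 resident macrophage genes 4 were higher and 0 lower (median 0.60). Of 9 complement genes 3 were higher and 1 lower (median -0.38). Of 3 measured cell cycle genes 2 were higher (median 3.86), among them Stmn1, a microtubule regulator of dividing cells, at 109.7 CPM in the chosen cells, 105 CPM in the day 5 cells with 0 Arg1 UMIs and 7.54 CPM in the day 1 cells. Only these 3 of the 17 cell cycle genes reached 50 CPM, Stmn1 in the chosen cells alone, so the median does not describe that list. Per cell the list took a median of 0% of UMIs in both groups, with upper quartiles of 0.0379% in the chosen cells and 0.0365% in the day 1 cells. The medians of the antioxidant (1 of 16 higher, 1 lower), immediate early (2 of 18 higher, 1 lower), stress response (0 of 7 in either direction), growth factor (2 of 8 higher, 1 lower) and apoptotic cell uptake lists (2 of 8 higher) lay between -0.24 and 0.26. Interferon genes had a median of -0.68, with 3 of 12 lower, and alternative activation genes one of -0.54, with 1 of 10 higher and 3 lower.

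Several lists had medians below the -0.21 of all genes. Of 19 cytokine and chemokine genes 12 were 2-fold lower in the chosen cells than in the day 1 cells and 1 higher (median -1.78). Of 16 monocyte genes 9 were lower and 0 higher (median -1.07). Of 17 injury matrix genes 9 were lower and 2 higher (median -1.02). Of 19 glycolysis and hypoxia genes 10 were lower and 1 higher (median -1.03). The monocyte list nonetheless summed to 36521 CPM in the chosen cells and 33344 CPM in the day 1 cells, and 56 of 89 chosen cells were above the day 1 median of its share. Lyz2, the macrophage lysozyme, named after its values were seen, carried most of that sum, with 28412 CPM in the chosen cells and 19051 CPM in the day 1 cells, and without it the list summed to 8109 CPM and 14293 CPM in the same order. Cxcl3, a neutrophil chemokine, had 0 UMIs in the chosen cells and was, with 3 counts taken as the limit, at least 58.4-fold lower than in the day 1 cells (lower end of the 95% interval 47.4), where it was at 663 CPM. Ppbp, another chemokine of that family, was at 7.57 CPM in the chosen cells against 697 CPM in the day 1 cells. Slpi, a secreted inhibitor of leukocyte proteases, was 40.8-fold (interval 15.8 to 150.5) lower, at 15.1 CPM against 618 CPM. Chil3, a chitinase-like protein that also marks alternative activation in mice, was 39.5-fold (interval 15.3 to 146) lower, at 15.1 CPM in the chosen cells against 598 CPM in the day 1 cells. Plac8 was at 121 CPM in the chosen cells against 922 CPM in the day 1 cells and Pgk1, a glycolytic kinase, at 34.1 CPM against 214 CPM. Vegfa and Tgm2 were close to their day 1 levels, at 114 and 140.0 CPM in the chosen cells against 122 and 146 CPM in the day 1 cells.

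Genes that separate day 1 cells with Arg1 from day 5 cells without it mostly placed the chosen cells nearer the latter. The genes were taken where day 1 cells with 3 or more Arg1 UMIs and day 5 cells with 0 Arg1 UMIs differed at least 4-fold, in 1577 day 1 and 1423 day 5 cells outside the matched sets. These cells differ in Arg1 as well as in time, which cannot be told apart here. Day 1 genes and day 5 genes are therefore only short names for the side where a gene was higher. On a log2 scale from 0, the level of the matched day 5 cells with 0 Arg1 UMIs, to 1, the level of the matched day 1 cells, the 22 genes that were higher at day 1 had a median position of 0.27, and 4 of them were nearer day 1 than day 5. The 22 genes summed to 11272 CPM in the chosen cells, 5325 CPM in the day 5 cells with 0 Arg1 UMIs and 31131 CPM in the day 1 cells. Of these sums Spp1 made up 5532, 1678 and 9588 CPM in the same order. Pf4, a chemokine named after its values were seen, made up 3057, 2116 and 11034 CPM, so the sums mainly follow Spp1 and Pf4. The 4 genes nearer day 1 were Spp1, Bnip3, Cxcl14 and Hilpda, which encodes a lipid droplet protein induced in low oxygen. The 23 genes that were higher at day 5 had a median position of 0.43, and 8 were nearer day 1. These were the class II beta chains H2-Ab1 and H2-Eb1, Cd74, H2-DMb1, the activation marker Cd83, Cd81, Mgl2 and Nfkbiz. The 23 genes summed to 76152 CPM in the chosen cells, 102292 CPM in the day 5 cells with 0 Arg1 UMIs and 17604 CPM in the day 1 cells. Apoe alone made up 58126, 52868 and 11082 CPM of these sums in the same order, so they mainly follow that gene.

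Single cells showed the same order. The day 1 genes took 0%, 0.973% and 8.13% of UMIs (lowest, median, highest) in the chosen cells, 0%, 0.414% and 3.90% in the day 5 cells with 0 Arg1 UMIs, and 0.249%, 2.72% and 14.1% in the day 1 cells. Of 89 chosen cells, 76 were above the median of the day 5 cells with 0 Arg1 UMIs and 3 above that of the day 1 cells. Part of this share was Spp1, whose own medians were 0.243% in the chosen cells, 0.0449% in the day 5 cells with 0 Arg1 UMIs and 0.403% in the day 1 cells. The day 5 genes took 0.772%, 6.62% and 19.0% in the chosen cells, 1.08%, 9.67% and 25.4% in the day 5 cells with 0 Arg1 UMIs, and 0%, 1.13% and 15.8% in the day 1 cells. Here 87 of 89 chosen cells were above the median of the day 1 cells and 19 above that of the day 5 cells with 0 Arg1 UMIs. Much of this share was Apoe, whose own medians were 4.66% in the chosen cells, 4.64% in the day 5 cells with 0 Arg1 UMIs and 0.753% in the day 1 cells.

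**Figure D4:**
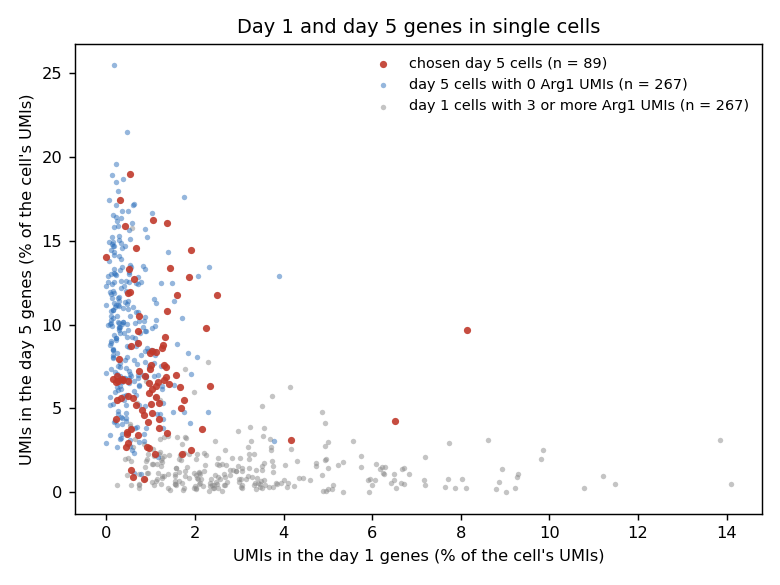
Each point is a cell, with the share of its UMIs in the 22 day 1 genes (x axis, percent) and in the 23 day 5 genes (y axis, percent), for the 89 chosen cells (red), 267 matched day 5 cells with 0 Arg1 UMIs (blue) and 267 matched day 1 cells with 3 or more Arg1 UMIs (grey). The chosen cells overlap the other day 5 cells, with medians of 0.973% in the day 1 genes and 6.62% in the day 5 genes, while the day 1 cells have medians of 2.72% and 1.13%. Apoe has the most UMIs of the day 5 genes in each group, and Spp1 and Pf4 the most of the day 1 genes.

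Day 1 cells with as few Arg1 UMIs as the chosen cells were also compared, an alternative chosen after seeing the data. Against 259 such cells Spp1 had a log2 ratio of -0.47, Retnla 4.30 and Plac8 -3.11. The medians were -0.60 for the glycolysis and hypoxia list, 0.71 for the class II list and -1.68 for cytokines and chemokines. Directions were thus as in the comparison above, with smaller sizes for Spp1 and for the glycolysis and class II lists.

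Levels also differed among day 5 cells by their number of Arg1 UMIs, compared here with the limits on Gpnmb and Cx3cr1 in every class, a choice made after seeing the data. Spp1 was at 1388 CPM in 1433 cells with 0 Arg1 UMIs, 3629 CPM in 178 cells with 1 or 2, 5321 CPM in the 49 chosen cells with 3 or 4 and 5745 CPM in the 40 chosen cells with 5 or more. The 3 or 4 class was at 3342 CPM without the 1 cell that held most Spp1, and the single classes were at 3573 CPM with 1 UMI, 3784 CPM with 2 and 2877 CPM with 3. Spp1 was thus lowest in the cells with 0 Arg1 UMIs among these classes, with no steady order from 1 to 4 UMIs. Fn1 was at 444 CPM with 0 Arg1 UMIs, 524 CPM with 1 or 2, 723 CPM with 3 or 4 and 1027 CPM with 5 or more, and the intervals of the 2 middle classes overlapped. Its single classes had no steady order, at 442 CPM with 1 UMI, 749 CPM with 2, 768 CPM with 3 and 619 CPM with 4. The glycolysis and hypoxia list was at 3197, 3725, 4975 and 6757 CPM in the same order of classes, with 5062 CPM at 3 UMIs and 4775 CPM at 4.

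The class II list ran the other way, at 39243, 27378, 15497 and 11124 CPM from 0 to 5 or more Arg1 UMIs, with 14917 CPM at 3 UMIs and 16824 CPM at 4. Plac8 was at 561 CPM with 0 Arg1 UMIs, 377 CPM with 1 or 2, 143 CPM with 3 or 4 and 98.9 CPM with 5 or more, and the intervals of the last 2 classes overlapped. Retnla was at 2349.8, 1021, 609.6 and 76.1 CPM, but at 91.7 CPM in cells with 2 UMIs and 833 CPM in those with 3, so its single classes had no steady order. The classes were not matched for depth, and their median UMIs per cell were 2086, 2587, 2395 and 3144 from 0 to 5 or more Arg1 UMIs. The part of depth in these differences was not tested.

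**Figure D5:**
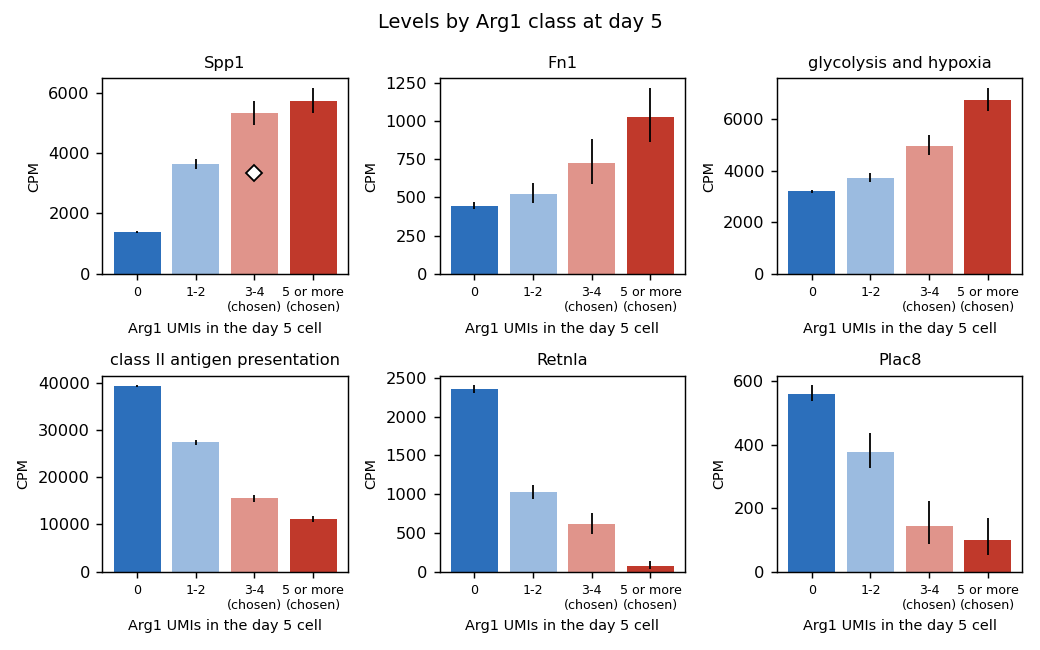
Levels (y axis, CPM) of Spp1, Fn1, the summed glycolysis and hypoxia list, the summed class II list, Retnla and Plac8 in day 5 cells within the Gpnmb and Cx3cr1 limits, by number of Arg1 UMIs (x axis). Bars are summed levels, lines 95% Poisson intervals, and the diamond is Spp1 without the cell that held most of it, 3342 CPM in place of 5321; Spp1 is at 1388 CPM at 0 Arg1 UMIs and Plac8 at 561 CPM there and 98.9 CPM at 5 or more.

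The chosen cells were not uniform. Class II genes took 1% or more of the UMIs in 24 of 89 chosen cells (27.0%, interval 18.1 to 37.4), against 168 of 267 day 5 cells with 0 Arg1 UMIs (62.9%, 56.8 to 68.7) and 20 of 267 day 1 cells (7.49%, 4.64 to 11.3). The limit of 1%, set after seeing the data, cuts a continuous range, with 16 chosen cells between 0.5% and 2%. The 24 chosen cells with more class II and the 65 with less had Arg1 at 1998 CPM and 2120 CPM, and Spp1 at 5549 CPM and 5525 CPM. The near equality of Spp1 rests on a single cell, because the chosen cell with most Spp1 was among the 24. The 24 cells held 425 Spp1 UMIs with it. The chosen cells with 4 Arg1 UMIs, to which it also belongs, held 441 with it and 166 without it. Glycolysis and hypoxia genes summed to 5497 CPM in the 24 cells and 6010 CPM in the 65. Fn1 was at 601 CPM in the 24 cells against 986 CPM in the 65, Hilpda at 118 against 330 CPM, Apoe at 44221 against 63800 CPM and Retnla at 561 against 256 CPM.

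The day 5 cells with 0 Arg1 UMIs had more Spp1 where class II was low. Spp1 was at 1090 CPM in the 168 of them with 1% or more class II and 2942 CPM in the 99 with less, Retnla at 3260 against 995 CPM, Plac8 at 825 against 183 CPM and Il1b at 1751 against 518 CPM. When cells under 1% class II were compared with each other after new matching, 65 chosen cells against 195 with 0 Arg1 UMIs, an alternative chosen after seeing the data, the log2 ratio of Spp1 was 0.75, below 2-fold, and that of Bnip3 0.75. Fn1 was at 1.81 and Vegfa at 2.04, both higher in the chosen cells. Retnla was at -1.29, Plac8 at -1.53 and Il1b at -0.56, and the list medians were 0.75 for glycolysis and hypoxia, -0.10 for class II and -0.70 for cytokines and chemokines.

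The 52 day 5 cells with 3 or more Arg1 UMIs that exceeded the limits on Gpnmb or Cx3cr1 had a level of Spp1 above that of the chosen cells. The chosen cells had 5532 CPM of Spp1 and these 52 cells 8004 CPM. Apoe was at 58126 CPM in the chosen cells and 77083 CPM in the 52, Fn1 at 874 and 794 CPM, the glycolysis and hypoxia list at 5861 and 4682 CPM and the class II list at 13323 and 13869 CPM. Among those kept out, the 27 with Gpnmb alone had 9349 CPM of Spp1 and 3318 CPM of Cd74, and the 22 with Cx3cr1 alone had 6652 CPM of Spp1.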

How the data were processed

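The files deposited by the authors held raw counts of UMIs per gene and cell barcode, not normalized, for 3 libraries with 27998 genes each. Cell Ranger 2.0.2 and the build mm10 are listed in the submitters' processing notes. How reads shared by near-identical copies and pseudogenes (Gapdh, Mif and Eno1 have such copies) were counted, and whether doublets or free RNA were removed, the sources used here do not state. The pooled table of the 3 libraries was left aside.

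Barcodes with under 200 genes or over 10% mitochondrial UMIs were removed, no doublet caller was run, and the members followed from the limits on Arg1, Gpnmb and Cx3cr1. Each chosen cell was matched to 3 unused cells of each comparison group within 0.2 log2 units of total UMIs without those 3 genes. UMIs were summed per group, scaled to CPM and compared as ratios with exact binomial intervals; levels have Poisson intervals and shares Clopper-Pearson intervals. PCR errors and cell sampling are outside these intervals. A gene was called at 2-fold or more with at least 100 CPM in either group (50 CPM for list genes), and a group at 0 was set to a floor of 3 counts. Shares were also computed after thinning each cell to 1000 UMIs, which left out shallower cells.

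Members, gene lists and markers were chosen with earlier results of these data known. Named genes were the 10 with the largest ratio in each direction per comparison (leaving out the 3 genes of the rule and genes that are predicted, mitochondrial or encode ribosomal proteins, hemoglobins or immunoglobulins), up to 4 of each of 18 lists, the arginine genes, Spp1, Fn1 and markers of other cell types with UMIs. Mif, Aldoa, Pkm, Gapdh, Ldha, Hilpda, Lyz2, Pf4 and Cd83 were named after their values were seen. The ratios were tested on simulated data with 200 changed genes. Python 3.11.15, numpy 2.4.6, scipy 1.17.1, pandas 2.3.3 and matplotlib 3.10.9 were used. Alternatives were other limits for Arg1, mitochondria and CPM, no limits on Gpnmb and Cx3cr1, no matching, thinning, another scaling and removal of the deepest cells.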

Additional observations from a re-analysis of the deposited data

How the results depend on the processing

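Over 137 values of named genes and lists that were at least 2-fold, 13 of 2003 recomputed values under other settings changed direction. The minimum of 50 CPM and the other scaling could not turn such a value, yet are counted among the 2003. Sizes changed more often. Of all named-gene ratios, 72 left their counting interval without such a turn (168 stayed) with 5 or more Arg1 UMIs. Under 1% class II 71 left it (171 stayed), and after thinning 55 (188 stayed). Thinning cells to 1000 UMIs gave 100 genes higher and 144 lower than in the day 5 cells with 0 Arg1 UMIs (45 and 59 as reported), 159 higher than in the day 1 cells (101 as reported) and 7 of 22 day 1 genes nearer day 1 (4 as reported), with Mt2 at a log2 ratio of -0.18. With 2 or more Arg1 UMIs there were 28 higher and 30 lower genes at day 5, 2 day 1 genes nearer day 1, and Cxcl10 against day 1 at 0.54. With 5 or more there were 117 higher and 111 lower genes and 7 such day 1 genes; Tma16 was at -1.42 and Ubap1 at -1.88 against day 5, and at -1.22 and -2.32 against day 1. Without limits on Gpnmb and Cx3cr1 there were 19 higher and 38 lower genes and 7 such day 1 genes. At a minimum of 50 CPM there were 143 higher and 185 lower genes against day 5, and 241 and 399 against day 1. Settings chosen after seeing the data were cells under 1% class II, each gene without its top chosen cell, day 1 cells matched on Arg1, and the Gpnmb and Cx3cr1 limits in every Arg1 class. The class II setting gave 68 higher genes at day 5, 2 day 1 genes and 1 day 5 gene nearer day 1 (8 as reported), Ass1 at -0.74 and H2-Eb1 at 0.13. Without each gene's top cell there were 22 higher genes at day 5, Ubap1 was at -1.32 there, and against day 1 Egln3 was at -2.81, Pigu at -0.45, Tma16 at -0.64 and Ubap1 at -1.98. Pigu then had no UMIs left in the chosen cells, so its value rests on the floor of 3 counts. Fewer cells, fewer UMIs or a lower minimum let counting error pass 2-fold more often, but its part in these counts was not tested, nor was any other cause. Positions were not computed without matching, without top cells or after matching on Arg1. No paired analysis was possible because each time point has 1 library. With 264288 UMIs in the chosen cells, a gene at 0 may be at up to 11.4 CPM by a limit of 3 counts. Spp1 in chosen cells with 3 or 4 Arg1 UMIs was at 3342 CPM without 1 cell, against 5321 CPM.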

Other observations

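The steady-state library, which took no part in the comparisons, sets the levels of the chosen cells beside those of the uninjured nerve. Its 728 cells were not matched for depth. Spp1 was at 5532 CPM in the chosen cells and 13.9 CPM at steady state, Fn1 at 874 CPM in the chosen cells and 4.83 CPM at steady state, and Vegfa at 114 CPM in the chosen cells with 0 UMIs at steady state. Cd74 was at 4930.2 CPM in the chosen cells against 29248 CPM at steady state, and Retnla at 344 CPM against 6939 CPM. Folr2, a folate receptor of resident macrophages, was at 378 CPM in the chosen cells, 311 CPM in the day 5 cells with 0 Arg1 UMIs, 171 CPM in the day 1 cells and 1651 CPM at steady state. Gas6, a bridge between dying cells and their receptors on macrophages, was at 75.7 CPM in the chosen cells, 110.0 CPM in the day 5 cells with 0 Arg1 UMIs, 20.1 CPM in the day 1 cells and 499.8 CPM at steady state. Apoe was at 58126 CPM in the chosen cells and 40937 CPM at steady state.

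Single genes of the interferon, stress and complement lists differed too. Isg15, a ubiquitin-like protein induced by interferon, was at 125 CPM in the chosen cells and 259 CPM in the day 5 cells with 0 Arg1 UMIs. In the stress response list, whose median was -0.22, Herpud1, which acts in the disposal of misfolded proteins, was at 15.1 CPM in the chosen cells (4 UMIs) and 59.4 CPM in the day 5 cells with 0 Arg1 UMIs. The stress transcription factors were on the other side and below 2-fold, Ddit3 at 68.1 CPM in the chosen cells and 43.0 CPM in the day 5 cells with 0 Arg1 UMIs, and Atf4 at 114 CPM and 77.1 CPM in the same order. Cfb, complement factor B, was at 30.3 CPM in the chosen cells and 94.8 CPM in the day 5 cells with 0 Arg1 UMIs, and Egr2, a transcription factor of alternative activation, at 41.6 CPM and 119 CPM in the same order.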
